A study of Mus musculus with 8 samples.

Results

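The 44 nuclear receptor genes examined here encode transcription factors of 1 protein family, and the chromatin around them was read from 8 ATAC-seq peak lists of mouse haematopoietic stem cells (HSC). Overlapping peaks of the 8 lists were merged into regions, and each region went to the protein-coding gene whose span held its midpoint, or else to the nearest span within 50 kb. Of 90736 regions in all, 407 fell to the 44 receptor genes, out of 21631 protein-coding genes considered. ATAC-seq uses a transposase that inserts sequencing adapters into accessible DNA, so that a peak marks open chromatin and not transcription. The series asks what the zinc-finger repressor Bcl11a does within HSC and to the HSC beside them.

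The 8 libraries came from long-term HSC of the bone marrow of Vav1-cre iMOS Bcl11a mice, labelled 2 to 3 months old in one field and 3 months in the study design. They form 4 groups of 2, namely MUT T1, MUT T2, WT T1 and WT T2. MUT and WT name the Bcl11a genotype, and T1 and T2 name the population that was sorted. Vav1-cre, which acts in blood cells, is shared by all 4 groups, so that WT libraries are not free of the Cre. Peaks do not measure the Bcl11a transcript, so the genotype labels were not checked from these lists. Which of T1 and T2 carries a transgene, and what separates them, is not stated in the sources used here. The replicates are numbered 1 and 2 with no statement that they came from separate animals, so p-values measure only the spread between these libraries, which may be technical. In such bulk libraries, fewer cells with an open region and less opening per cell cannot be told apart.

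Nuclear receptors bind DNA through a pair of zinc fingers, and many switch genes on or off when a small lipophilic ligand such as retinoic acid, thyroid hormone, a sterol, a steroid or a fatty acid fills their pocket. Many of them act as heterodimers with a retinoid X receptor, steroid receptors mostly act as homodimers, and orphan receptors such as the NR4A group work without a known classical ligand. In HSC, retinoic acid signalling is known for its link to dormancy, PPARD for its part in fatty acid oxidation, and NR4A receptors for restraining proliferation.

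The lists held 62232 to 74785 peaks, and the recovered background of the peak caller, a measure of depth, was 1.89 to 3.38 fragments per position. It was lowest in MUT T1 replicate 2 (2.03) and in WT T2 replicates 1 and 2 (2.45 and 1.89), and was 3.10 to 3.38 in the other 5 libraries. A peak has a fold enrichment, the authors' own ratio of its summit to the local background in that library. It is not scaled between libraries, so values set side by side below are a description, and groups are compared by rank within each list. Its median over a list ran from 6.16 to 7.66 and was highest in those 3 shallow libraries (7.14, 7.25 and 7.66). Of all protein-coding genes with a listed start, 63.2% had one open in all 8 libraries. Of the labelled cell type's marker genes with a listed start, 8 of 8 stem cell genes had that start open in all 8 libraries. The same held for 0 of 5 B cell genes, 0 of 6 T and NK cell genes, 0 of 5 neutrophil and monocyte genes, 1 of 5 erythroid genes and 2 of 3 endothelial and stromal genes.

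Most receptor genes carried open chromatin in every library, and often at one of several start sites. RefSeq promoter windows (250 bases before to 50 after a gene start, assembly GRCm38.p6, which is mm10) matched 40 of the 44 genes, with 61 listed starts. Windows are shown of 3 of the genes where one start was open in all 8 libraries while another had no call in any. Ppard and Nr1h3 are shown because both are named below. Fold enrichment at the Ppard promoter was lower in MUT than in WT libraries, and that at Nr1h3 was the highest of the receptor promoters. By rank, MUT lay below WT no more often in receptor regions called in all 8 libraries than in all such regions (1.07% against 1.55%). Capitals mark CpG dinucleotides. The Rxra windows lie on the plus strand at chr2:27676951-27677250 (start 1, open) and chr2:27709042-27709341 (start 2, no call). Those of Rara lie on the plus strand at chr11:98937446-98937745 (start 1, open) and chr11:98964622-98964921 (start 4, no call), and those of Pparg on the plus strand at chr6:115360894-115361193 (start 1, open) and chr6:115421816-115422115 (start 3, no call). The Ppard window is chr17:28232504-28232803 on the plus strand, and the Nr1h3 window chr2:91195067-91195366 on the minus strand, both open.
Rxra start 1: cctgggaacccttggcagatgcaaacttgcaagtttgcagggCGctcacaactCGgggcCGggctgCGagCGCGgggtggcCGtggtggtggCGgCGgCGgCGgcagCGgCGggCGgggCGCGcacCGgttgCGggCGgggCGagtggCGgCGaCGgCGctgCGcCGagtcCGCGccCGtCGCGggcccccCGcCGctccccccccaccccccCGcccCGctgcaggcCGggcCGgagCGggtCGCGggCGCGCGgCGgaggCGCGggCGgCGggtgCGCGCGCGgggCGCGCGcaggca
Rxra start 2: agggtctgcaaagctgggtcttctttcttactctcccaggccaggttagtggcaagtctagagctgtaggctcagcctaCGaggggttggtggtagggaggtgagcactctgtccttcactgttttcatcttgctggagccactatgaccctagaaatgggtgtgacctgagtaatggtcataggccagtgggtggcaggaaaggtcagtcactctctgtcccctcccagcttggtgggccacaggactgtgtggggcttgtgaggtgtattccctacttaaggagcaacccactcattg
Rara start 1: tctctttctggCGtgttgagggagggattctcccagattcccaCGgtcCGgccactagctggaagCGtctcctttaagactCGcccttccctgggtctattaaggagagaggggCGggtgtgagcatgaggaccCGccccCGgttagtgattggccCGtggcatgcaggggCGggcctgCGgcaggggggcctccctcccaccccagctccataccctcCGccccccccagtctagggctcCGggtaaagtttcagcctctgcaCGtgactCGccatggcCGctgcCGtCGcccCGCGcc
Rara start 4: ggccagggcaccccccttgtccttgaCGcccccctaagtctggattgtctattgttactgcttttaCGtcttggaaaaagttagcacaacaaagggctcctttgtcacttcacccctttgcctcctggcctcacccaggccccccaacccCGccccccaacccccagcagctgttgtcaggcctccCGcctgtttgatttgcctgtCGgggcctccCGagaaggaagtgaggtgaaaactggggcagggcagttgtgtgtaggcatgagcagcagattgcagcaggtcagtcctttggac
Pparg start 1: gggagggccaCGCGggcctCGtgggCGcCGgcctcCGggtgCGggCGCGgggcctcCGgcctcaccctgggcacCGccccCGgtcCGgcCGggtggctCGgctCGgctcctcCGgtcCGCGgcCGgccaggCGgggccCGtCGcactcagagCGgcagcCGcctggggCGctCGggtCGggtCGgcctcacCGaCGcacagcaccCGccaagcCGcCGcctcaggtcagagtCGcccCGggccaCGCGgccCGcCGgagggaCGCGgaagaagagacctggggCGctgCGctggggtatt
Pparg start 3: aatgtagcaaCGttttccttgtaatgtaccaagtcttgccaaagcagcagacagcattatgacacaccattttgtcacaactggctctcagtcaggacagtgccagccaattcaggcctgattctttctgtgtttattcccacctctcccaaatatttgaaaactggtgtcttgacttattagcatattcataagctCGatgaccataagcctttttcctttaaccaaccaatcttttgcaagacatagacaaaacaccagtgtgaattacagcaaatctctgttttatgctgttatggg
Ppard start 1: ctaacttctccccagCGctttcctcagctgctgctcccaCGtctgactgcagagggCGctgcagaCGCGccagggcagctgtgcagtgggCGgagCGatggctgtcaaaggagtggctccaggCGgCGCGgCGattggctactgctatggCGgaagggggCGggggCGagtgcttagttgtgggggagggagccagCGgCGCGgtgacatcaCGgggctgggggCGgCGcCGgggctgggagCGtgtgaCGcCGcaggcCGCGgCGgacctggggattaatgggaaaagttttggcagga
Nr1h3 start 1: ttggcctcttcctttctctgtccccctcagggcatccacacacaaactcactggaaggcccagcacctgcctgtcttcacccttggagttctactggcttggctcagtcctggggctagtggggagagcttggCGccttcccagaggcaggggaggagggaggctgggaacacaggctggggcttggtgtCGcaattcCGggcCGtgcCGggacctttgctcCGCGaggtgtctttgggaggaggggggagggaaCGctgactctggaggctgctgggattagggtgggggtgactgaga
In each of the first 3 pairs the open window holds more CpG than its partner. The numbers are 55 against 1 in Rxra, 20 against 6 in Rara and 44 against 2 in Pparg. Of the genes of this kind not shown, the contrast was small in Rxrg (13 against 9) and Nr6a1 (10 against 8). It was larger in Thrb (37 against 4), Rorb (20 against 5) and Nr2f1 (23 against 4). The Ppard window holds 27 CpG. The Nr1h3 window holds only 8 although its region had the highest fold enrichment of the receptor promoters.

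Accessible sites were present at almost the whole family. A region called in all 8 libraries lay at 41 of the 44 receptor genes (93.2%), against 73.2% of all protein-coding genes. Nr1i3, which encodes the xenobiotic receptor CAR, had 1 region, called only in WT T1 replicate 2. Nr2e1, encoding the orphan receptor TLX of neural stem cells, had 14 regions, none of them called in all 8 libraries. Hnf4g, a relative of the liver regulator Hnf4a, had no region, as did 21.0% of all protein-coding genes. Receptor genes are long, with a median span of 51772.5 bp against 17329 bp for all protein-coding genes, and the part of span length in the counts per gene was not tested. The receptors had a median of 7.5 regions per gene against 2, and 3.5 regions called in all 8 libraries against 1.

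**Figure D1:**
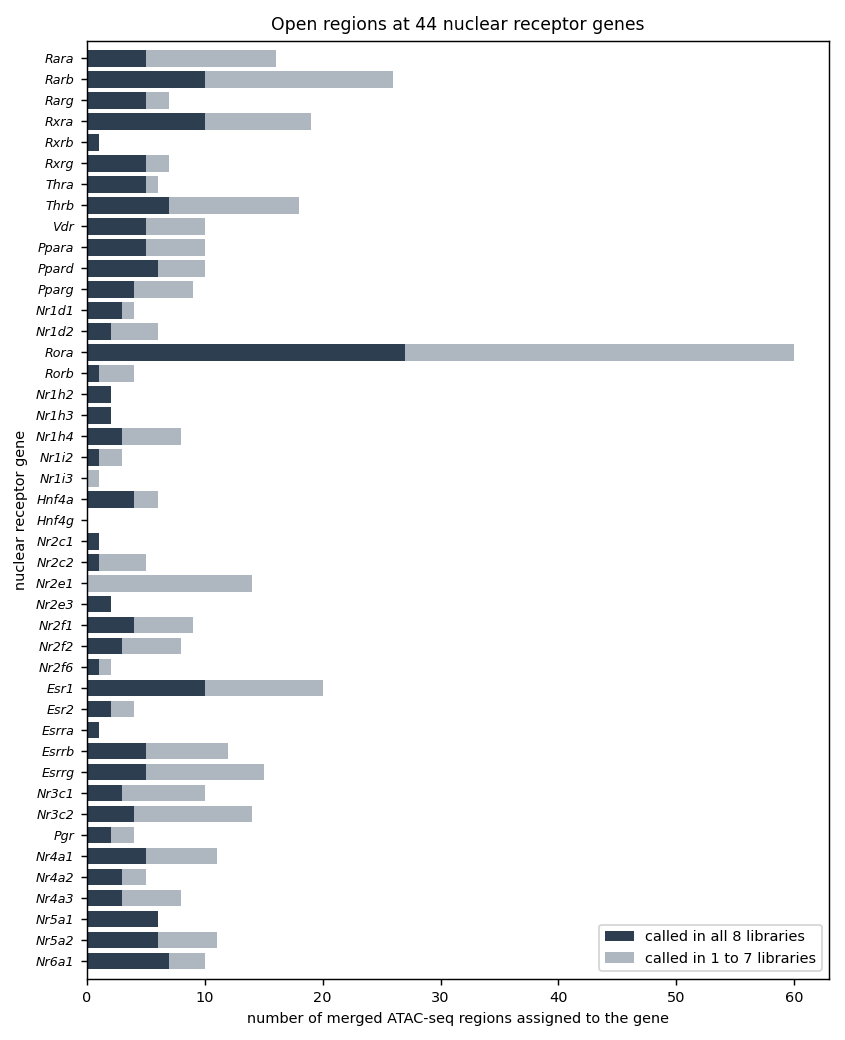
Number of regions assigned to each of the 44 receptor genes, split into those called in all 8 libraries and those called in fewer. Rora has the longest bar, with 60 regions, and Hnf4g has none.

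How widely each receptor region was called is given next to the same share over all regions. Of the 407, 187 (45.9%) were called in every library, against 54.6% of all regions, and 76 (18.7%) in 1 library, against 11.6%. The regions called in every library had a median width of 907 bp (927 bp over all such regions), and those called in fewer 431.5 bp. Of the 407, 316 (77.6%) had their midpoint inside the receptor's span, against 66.3% of the regions assigned to any gene.

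At the start sites, 32 of the 40 receptor genes with a listed start (80.0%) had a start covered by a region called in all 8 libraries, against 63.2% of the 17274 protein-coding genes with one. The 7 receptors with no call at any listed start were Nr1h4, Nr1i3, Hnf4a, Nr2e3, Nr2f2, Pgr and Nr5a2, where 34.0% of all genes had none. They encode the bile acid receptor FXR, CAR, the liver regulator HNF4A, a photoreceptor regulator, COUP-TFII, the progesterone receptor and LRH-1. All of these except Nr1i3 still had at least 1 region called in all 8 libraries elsewhere at the gene. At Nr1h4 and Nr2e3, whose listed start lies inside the span, such a region lay within 1 kb of an end of the span. Starts that are not listed were not checked. The start of Nr2e1 was covered in WT T2 replicate 2 only, at a fold enrichment of 2.90. Thra, Hnf4g, Nr3c1 and Nr5a1 had no listed start to check. The 35 distinct promoter regions include 3 at Rara, Nr4a2 and Thrb whose midpoint lay in the span of another annotated gene, so that they are not among the 407.

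Of the 16 receptor genes with several listed starts, 10 combined starts open in all 8 libraries with starts that were not. Rxra, Rxrg, Nr6a1, Thrb, Rorb and Nr2f1 each had 1 open start and 1 start with no call. Rara had starts 1 and 2 open and no call at starts 3 and 4, and Pparg had starts 1 and 2 open and no call at start 3. Esr1 had its first start open and its second covered in 6 libraries. Esrrb had its second start open and its first covered in 5.

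Open and uncalled receptor windows differed in base composition as those of other genes did. The 40 open windows held a median of 20 CpG (range 2 to 55) and 63.5% GC, against 4.5 CpG (1 to 9) and 49.3% GC in the 18 windows with no call. Over protein-coding genes the medians were 21 CpG and 62.0% GC in 12871 open windows, and 3 CpG and 47.0% GC in 7505 windows with no call. The GC box GGGCGG, searched like every motif here on both strands, was in 60% of the open and 16.7% of the uncalled receptor windows, and in 67.1% of the open, 12.2% of the uncalled and 46.7% of all 21045 protein-coding windows. CCAAT was in 40.0% of the open and 33.3% of the uncalled receptor windows, against 37.1% and 41.2% of those windows over protein-coding genes (38.5% of all). TATAAA was in 7.5% and 16.7%, against 6.25% and 24% (12.7% of all). The E-box CACGTG was in 7.5% of the open and 11.1% of the uncalled receptor windows, against 10.3% and 4.02% (7.91% of all). The full cAMP response element was in 2.5% and 0%, against 3.21% and 0.733% (2.26% of all).

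The half-site AGGTCA, bound by many receptors themselves, was in 5 of the 40 open windows (12.5%) and 6 of the 18 uncalled ones (33.3%), against 11.1% of the open, 20.7% of the uncalled and 14.6% of all protein-coding windows. AAAGGTCA, which contains AGGTCA and is the site of NR4A monomers, was in 0 of the 40 open and 2 of the 18 uncalled receptor windows, against 0.785% of the open, 2.21% of the uncalled and 1.32% of all protein-coding windows. Direct repeats of AGGTCA with spacers of 1, 4 and 5 bases were in 0 of the 61 receptor windows and in 10, 0 and 1 of the 21045. A match here is a string of letters in a window and not a binding site.

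**Figure D2:**
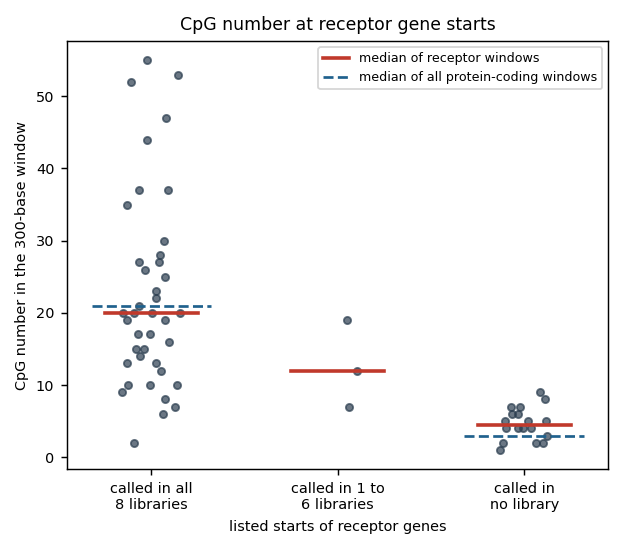
Number of CpG dinucleotides in the promoter windows of receptor genes, by whether a region covered the window in all 8 libraries, in some or in none. The 40 open windows have a median of 20 CpG and the 18 windows with no call a median of 4.5, all of the 18 at 9 or below.

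Promoter strength is given below by class of receptor, as fold enrichment of the region over the listed start, with the 4 MUT libraries first and in the order T1 replicates 1 and 2, then T2 replicates 1 and 2. The retinoic acid receptors, which bind all-trans retinoic acid, had 49 regions, 20 of which every library called. The Rara promoter region had 2.96, 2.73, 2.93 and 3.07 in MUT libraries, against 2.63, 2.67, 3.40 and 4.06 in WT libraries. Rarb had 6.16, 6.41, 6.24 and 7.12 in MUT libraries, against 6.03, 5.98, 6.60 and 6.13 in WT libraries. At its stronger promoter region, Rarg had 7.88, 9.79, 6.82 and 6.93 in MUT libraries, against 5.74, 6.85, 8.44 and 7.29 in WT libraries. Rara was thus the weakest of the 3 in all 8 libraries, and at each of the 3 genes the MUT and WT values overlapped. Its open window holds 20 CpG, as printed above.

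The retinoid X receptors, the shared heterodimer partners, had 27 regions, of which 16 were called in every library. Rxra had 4.82, 4.74, 4.69 and 5.55 in MUT libraries, against 4.70, 4.78, 5.68 and 5.29 in WT libraries. Rxrg had 9.11, 9.70, 11.4 and 7.98 in MUT libraries, against 9.81, 9.33, 11.2 and 11.4 in WT libraries. Rxrg was the higher of the 2 in every library, and neither gene separated MUT from WT. The Rxrb promoter region ran from 4.22 to 6.0.

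Among the receptors for thyroid hormone and vitamin D, with 34 regions and 17 called in every library, Vdr had 6.91, 7.37, 6.90 and 7.11 at its promoter in MUT libraries, against 7.93, 7.38, 6.02 and 8.13 in WT libraries. Thra had its strongest region at chr11:98740233-98742384, with 5.99, 7.31, 6.88 and 5.93 in MUT libraries, against 6.15, 5.91, 7.10 and 8.56 in WT libraries. The groups overlapped at both. At Thrb the promoter region ran from 5.01 to 6.92.

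The PPARs, receptors for fatty acids and their derivatives, had 29 regions, of which 15 were called in every library. Ppara had 6.49, 8.10, 8.43 and 7.79 in MUT libraries, against 6.87, 8.07, 10.9 and 10.6 in WT libraries. Pparg had 7.18, 7.36, 8.08 and 7.82 in MUT libraries, against 8.04, 7.0, 10.2 and 9.29 in WT libraries. At both genes the 2 WT T2 libraries were the highest and the MUT and WT values overlapped. Ppard had 6.03, 6.38, 6.25 and 6.46 in MUT libraries, against 7.61, 7.88, 7.45 and 7.71 in WT libraries. On this scale, which is not adjusted for depth, the 4 MUT values at Ppard all lay below the 4 WT values. Ppard was the only one of the 32 receptors with an open start for which genotypes separated in this way, and 0 separated in the other direction. The share of all promoters that separated on this scale was not counted, so this is not a trait shown to be particular to receptors. Ranks within each library were compared over all regions called everywhere, not promoters alone. There MUT lay below WT in 1.07% of receptor regions, against 1.55% of all such regions.

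The circadian repressors Nr1d1 and Nr1d2 and the related activators Rora and Rorb had 74 regions, of which 33 were called in every library, and 27 of the 33 were at Rora. Their promoter regions ran from 4.67 to 6.05 at Nr1d1, 5.12 to 6.77 at Nr1d2, 5.24 to 7.34 at Rora and 5.6 to 7.31 at Rorb. These 4 ranges overlap one another.

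The oxysterol, bile acid and xenobiotic receptors had 16 regions, of which 8 were called in every library. Nr1h3, encoding the liver X receptor alpha, had 11.4, 11.6, 11.2 and 10.6 in MUT libraries, against 10.7, 10.3, 11.6 and 11.9 in WT libraries. Nr1h2, encoding liver X receptor beta, had 7.31, 7.62, 7.86 and 6.80 in MUT libraries, against 6.90, 7.19, 9.28 and 8.28 in WT libraries. Nr1h3 was above Nr1h2 in all 8 libraries, and the genotypes overlapped at both genes. Nr1i2, encoding the pregnane X receptor, ran from 5.47 to 8.26.

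In the group of HNF4, testicular receptors and COUP-TFs, 16 of 47 regions were called in every library and 4 of 8 genes with a listed start had it open. Nr2c1, encoding the testicular receptor TR2, a repressor of embryonic and fetal globin genes, had 8.82, 8.91, 9.01 and 8.03 in MUT libraries, against 8.13, 7.32, 9.54 and 11.1 in WT libraries. Its partner TR4, encoded by Nr2c2, had a promoter region that ran from 5.12 to 6.48. The orphan receptor genes Nr2f6 and Nr2f1 ran from 6.05 to 9.2 and from 2.48 to 4.11. Nr2c1 was the strongest of these promoters by its median, and its MUT and WT values overlapped.

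The oestrogen and oestrogen-related receptors had 52 regions, of which 23 were called in every library, and all 5 genes had an open start. Esrrg, an orphan regulator of mitochondrial genes, had its strongest promoter region at start 4, with 9.51, 10.3, 10.8 and 10.7 in MUT libraries, against 10.4, 10.7, 15.1 and 12.6 in WT libraries. Esr2 had 8.39, 8.04, 8.02 and 6.94 in MUT libraries, against 9.76, 7.61, 7.75 and 9.69 in WT libraries. Esr1 had 7.24, 6.51, 6.54 and 6.15 in MUT libraries, against 5.74, 6.0, 6.43 and 6.10 in WT libraries. MUT and WT overlapped at each of the 3 genes on this scale. Esrra ran from 4.83 to 7.21.

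Steroid receptors had 28 regions, of which 9 were called in every library. Nr3c1, encoding the glucocorticoid receptor, had its strongest region at 7.90, 9.81, 9.07 and 9.15 in MUT libraries, against 8.47, 7.90, 11.8 and 12.2 in WT libraries. It lies inside the gene at chr18:39460568-39461244, and both WT T2 libraries were above the other 6. The promoter region of Nr3c2, which encodes the mineralocorticoid receptor, ran from 3.43 to 4.77.

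The NR4A genes, immediate-early orphan receptors, had 24 regions, of which 11 were called in every library. Nr4a1 had 2.67, 3.36, 2.31 and 3.18 in MUT libraries, against 2.97, 2.38, 2.66 and 3.11 in WT libraries. Nr4a2 had 6.5, 8.21, 7.86 and 7.37 in MUT libraries, against 6.98, 7.28, 7.89 and 9.16 in WT libraries. Nr4a3 had 3.14, 3.47, 3.67 and 3.23 in MUT libraries, against 3.03, 3.18, 3.56 and 3.67 in WT libraries. Nr4a2 was above both relatives in all 8 libraries, while Nr4a1, Nr4a3, Rara and Nr2f1 had the lowest promoter medians of the 32 genes. The last group, NR5 and NR6, had 27 regions with 19 called in every library, and only Nr6a1, encoding the germ cell nuclear factor, had an open start. Its promoter had 6.69, 8.0, 9.26 and 8.17 in MUT libraries, against 6.30, 7.73, 7.09 and 9.21 in WT libraries, which overlap.

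Both WT T2 libraries were above both WT T1 libraries at 25 of the 32 promoters and below both at 0. The same count over the promoters of all genes was not made, so this is not a trait shown to be particular to receptors. The median fold enrichment of the whole list moves the same way, at 6.43 and 6.52 in WT T1 libraries and 7.25 and 7.66 in WT T2 libraries, and its part in these values was not tested. For that reason group comparisons of strength below use percentile ranks within each library.

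**Figure D3:**
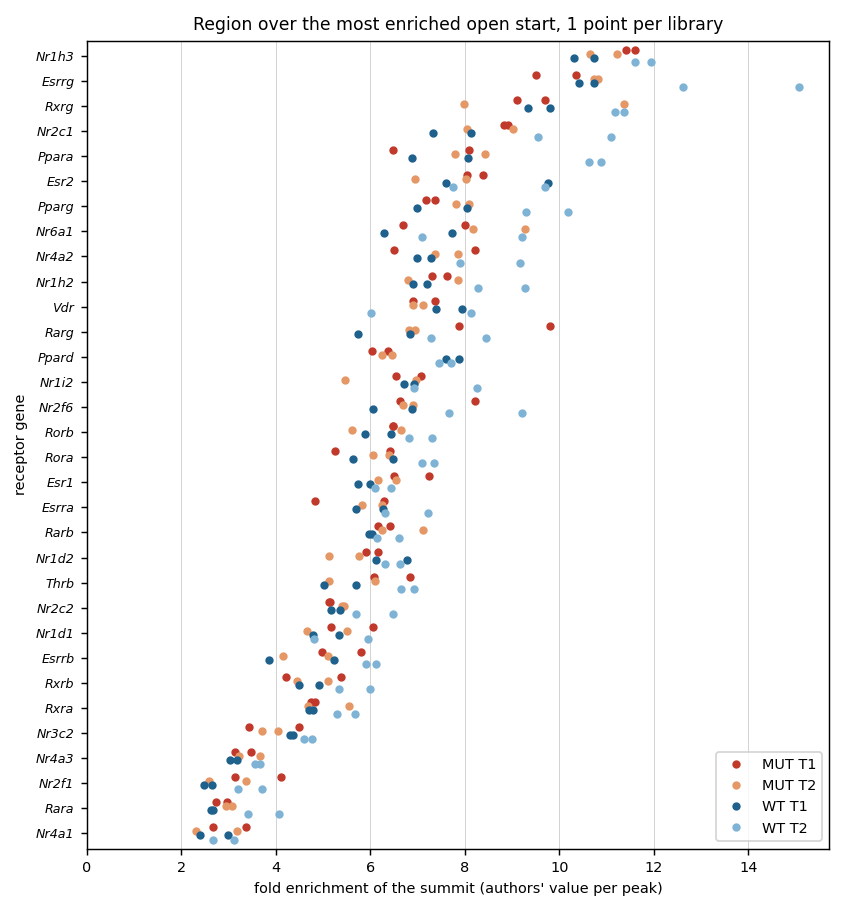
Fold enrichment of the strongest open promoter region of each of 32 receptor genes in the 8 libraries, ordered by median. Nr1h3 is highest at a median of 11.3, and the MUT and WT points separate at Ppard, where all 4 MUT libraries lie lower.

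Among the 38 receptor genes with a listed start and a region called in every library, 12 (31.6%) had their strongest such region over a listed start, against 48.0% of 13191 protein-coding genes counted in the same way. A region over a start was counted here for the gene of that start, also at Rara, Nr4a2 and Thrb. The 12 were Esr2, Esrra, Nr1d1, Nr1i2, Nr2c1, Nr2c2, Nr2f6, Nr4a2, Pparg, Rarg, Rorb and Rxrb, all named after their values were seen. The receptors had more regions to choose from, with a median of 4 per gene against 2, and 19.9% of their regions lay over a start, against 31.2%, and the part of these numbers in the share was not tested. The 32 start regions among the 187 had a median fold enrichment of 6.35 and a median width of 1521.5 bp, and the other 155 had 6.79 and 851 bp. By its median, the strongest of all lay inside Nr6a1 at chr2:38797055-38797728, with 14.4 to 18.2 in the 8 libraries. Next came a second region inside Nr6a1 at chr2:38863810-38864448 (12.2 to 14.9). It was followed by a region inside Thrb at chr14:17966969-17967780 (11.9 to 15.3) and one 21383 bp outside the span of Rxrg at chr1:167660521-167661492 (11.8 to 15.3). Each of these regions was above the median of its list in all 8 libraries.

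The comparison of MUT with WT in each population asks what changed with the Bcl11a genotype. A region counts as gained when both libraries of the first group called it and neither of the second did, and as lost when the roles are turned round. Groups of 2 libraries allow no test of a single region. The 407 receptor regions were read against the share of all 90736 regions that met the same rule. Over the 4 pairs of groups and both pooled comparisons, 53 distinct receptor regions (13.0%) at 25 genes were gained or lost, against 9.80% of all regions. Of these, 44 (83.0%) lay inside the gene span, against 64.7% of all differing regions assigned to a gene, and 1 lay over a listed start. Their median width was 545 bp (481 bp over all differing regions). Their fold enrichment where called had a median of 4.53 (2.13 to 10.8), against 4.68 for all differing regions and 6.72 for receptor regions called in every library.

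Between MUT T1 and WT T1, 8 receptor regions were gained (1.97%) and 11 were lost (2.70%), against 1.26% and 2.13% of all regions. The 19 in both directions made up 4.67% of the receptor regions, against 3.39% of all regions. The gained region with the highest smaller value lay inside Rarb at chr14:17012147-17013008, with 7.12 and 7.25 in MUT T1 libraries and no peak in either WT T1 library. It was also called in both MUT T2 libraries (8.02 and 10.7) and in WT T2 replicate 1 (6.96). A region inside Thrb at chr14:17875989-17876529 had 5.10 and 4.53 in MUT T1 libraries, no peak in WT T1 libraries, and one in WT T2 replicate 2 (4.13). The other 3 of the first 5 gained regions, at Nr3c2, Rarb and Thrb, were absent from all 4 WT lists and are described below. Among lost regions, one inside Nr1d2 at chr14:18210734-18211365 had no peak in MUT T1 libraries, against 5.78 and 7.16 in WT T1 libraries. One inside Nr3c1 at chr18:39496595-39497017 had no peak in MUT T1 libraries, against 5.69 and 5.15 in WT T1 libraries. The next 3, near or in Ppara, Esrrg and Esr2, had 4.15 to 4.82 in WT T1 libraries. No receptor had more than 2 regions on either side, and the share of lost regions was close to the background. Without MUT T1 replicate 2, the shallow library of the group, 33 regions were gained and 15 lost. A gain then needs a call in the remaining MUT T1 library only, while a loss still needs both WT T1 libraries. These counts therefore cannot show whether the direction of the balance rested on that library.

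Between MUT T2 and WT T2, 23 receptor regions were gained (5.65%) and 4 were lost (0.983%), against 3.95% and 0.457% of all regions. The 27 in both directions made up 6.63%, against 4.41%. Gained regions lay at 15 genes, with 4 each at Rora and Thrb and 2 each at Nr2e1 and Nr3c2. A region inside Nr2e1 at chr10:42562176-42562821 had 8.07 and 7.07 in MUT T2 libraries and no peak in WT T2 libraries. One inside Nr5a2 at chr1:136874649-136875463 had 6.65 and 7.31 in MUT T2 libraries, and one 43050 bp upstream of Rxra at chr2:27633783-27634519 had 6.41 and 5.69, both with no peak in WT T2 libraries. All 3 were called in both MUT T1 libraries and in WT T1 replicate 1 as well. The other 2 of the first 5 were the Nr4a3 region described below and another Nr2e1 region (4.89 and 4.89 in MUT T2 libraries). The 4 lost regions, at Rora, Nr1h4, Nr2f1 and Rara, had no peak in MUT T2 libraries, against 2.85 to 5.22 in WT T2 libraries. MUT T2 libraries had the higher depth, at 3.21 and 3.10 fragments per position, against 2.45 and 1.89 in WT T2 libraries. When every list was cut to the same number of peaks, 7 of 331 receptor regions were gained and 9 lost, so the excess of gained regions did not persist. The shares of all regions under that setting are not given here, so these counts describe the receptor regions only.

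T1 was set against T2 within each genotype in the same way. Between MUT T1 and MUT T2, 3 receptor regions were gained (0.737%) and 9 were lost (2.21%), against 0.641% and 1.74% of all regions. The 12 together were 2.95%, against 2.38%. Rora had 2 of the gained regions, of which one at chr9:68753305-68754143 had 3.88 and 5.93 in MUT T1 libraries and no peak in MUT T2 libraries. The third was in Rara at chr11:98960373-98961004, with 2.35 and 3.33 in MUT T1 libraries and no peak in MUT T2 libraries, although all 4 WT libraries called it. The first of the lost regions was the Nr1d2 region above, with no peak in MUT T1 libraries, against 4.75 and 7.07 in MUT T2 libraries. A region in Thrb at chr14:17904562-17904986 had no peak in MUT T1 libraries, against 6.91 and 4.56 in MUT T2 libraries. The single differing region over a listed start covered the first start of Esrrb, an orphan receptor of embryonic stem cells, with no peak in MUT T1 libraries, against 4.51 and 4.72 in MUT T2 libraries. It was called in 3 of the 4 WT libraries too. The other 2 of the first 5 lost regions lay in Rora. With lists cut to equal numbers of peaks, 4 were gained and 3 lost of 331, so the excess of lost regions did not persist under that setting. The shares of all regions under it are not given here, so these counts too describe the receptor regions only. Without MUT T1 replicate 2 the counts were 24 and 13. A gain then needs a call in the remaining MUT T1 library only, so these counts cannot show whether the excess persisted.

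Between WT T1 and WT T2, 18 receptor regions were gained (4.42%) and 4 were lost (0.983%), against 3.90% and 0.632% of all regions. The 22 together were 5.41%, against 4.54%. The largest gained value was in Esrrg at chr1:188188619-188189353, with 10.8 and 8.85 in WT T1 libraries and no peak in WT T2 libraries. MUT T1 libraries had 4.33 and 4.94 there. A region in Thrb at chr14:17988408-17989389 had 6.37 and 6.46 in WT T1 libraries, and one 9869 bp upstream of Vdr at chr15:97917863-97918468 had 5.19 and 5.36, both with no peak in WT T2 libraries and called in all 4 MUT libraries. The remaining 2 of the first 5 lay in Nr2c2 and Nr3c1. The 4 lost regions were at Rorb, Rora, Rxra and Nr2f1. That in Rorb, at chr19:18975009-18975451, had no peak in WT T1 libraries, against 8.12 and 6.91 in WT T2 libraries. The WT T1 libraries were deeper, at 3.24 and 3.29 fragments per position, against 2.45 and 1.89 in WT T2 libraries. The part of depth in the gained count was not tested. The gained and lost counts with equal numbers of peaks are not given here for this comparison. Both comparisons with WT T2 share its 2 libraries.

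Called in all 4 MUT and none of the 4 WT libraries were 4 receptor regions (0.983%), against 0.222% of all regions, and the reverse held for 0 receptor regions, against 0.0606% of all (0.282% for both directions). They lay at 4 genes of different classes. Inside Nr3c2, 210744 bp downstream of its listed start at chr8:77112764-77113385, the MUT libraries had 5.44, 6.38, 4.21 and 6.52. Inside Rarb, 126647 bp downstream of its start at chr14:16448480-16449178, they had 4.88, 4.61, 4.18 and 4.64. Inside Thrb at chr14:17879242-17879933, 102057 bp upstream of the second start, they had 4.61, 5.36, 4.04 and 7.74. The fourth region lay 38942 bp upstream of the Nr4a3 start at chr4:48005964-48006763, with 3.65, 5.27, 6.17 and 5.61. None of the 4 had a peak in a WT list, and most values were below the median of their list.

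These 4 calls depended on the number of peaks kept and on the overlap that counts as a call. With every list cut to the same number of peaks, 0 of the 4 stayed in all MUT libraries: the regions at Nr3c2, Rarb, Thrb and Nr4a3 were then called in 3, 1, 2 and 3 MUT libraries and in 0 WT libraries. Under that setting other receptor regions met the rule, at Nr5a2 and Rxra in MUT libraries and at Esrrg in WT libraries. With peaks at a −log10 q-value of at least 5, 3 of the 4 were kept, and with windows around summits all 4. When peaks had to cover 50% of a region, only the Thrb region was kept, and those at Nr3c2, Rarb and Nr4a3 were called in 3, 3 and 2 MUT libraries and in 0 WT libraries.

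Rarb and Thrb lie close together on chromosome 14, which held 27 of the 201 regions of this kind (13.4%) but 4.03% of all regions. Its first 70 Mb held 24 of the 201 (11.9%), 2.68% of all regions, and 6 of the 55 regions with the reverse pattern. Within 5 Mb of the gene, such MUT regions numbered 5 of 349 at Rarb, 4 of 400 at Thrb, 3 of 299 at Nr3c2 and 2 of 411 at Nr4a3. Whether this stretch of chromosome 14 differs in sequence between the mice was not tested.

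**Figure D4:**
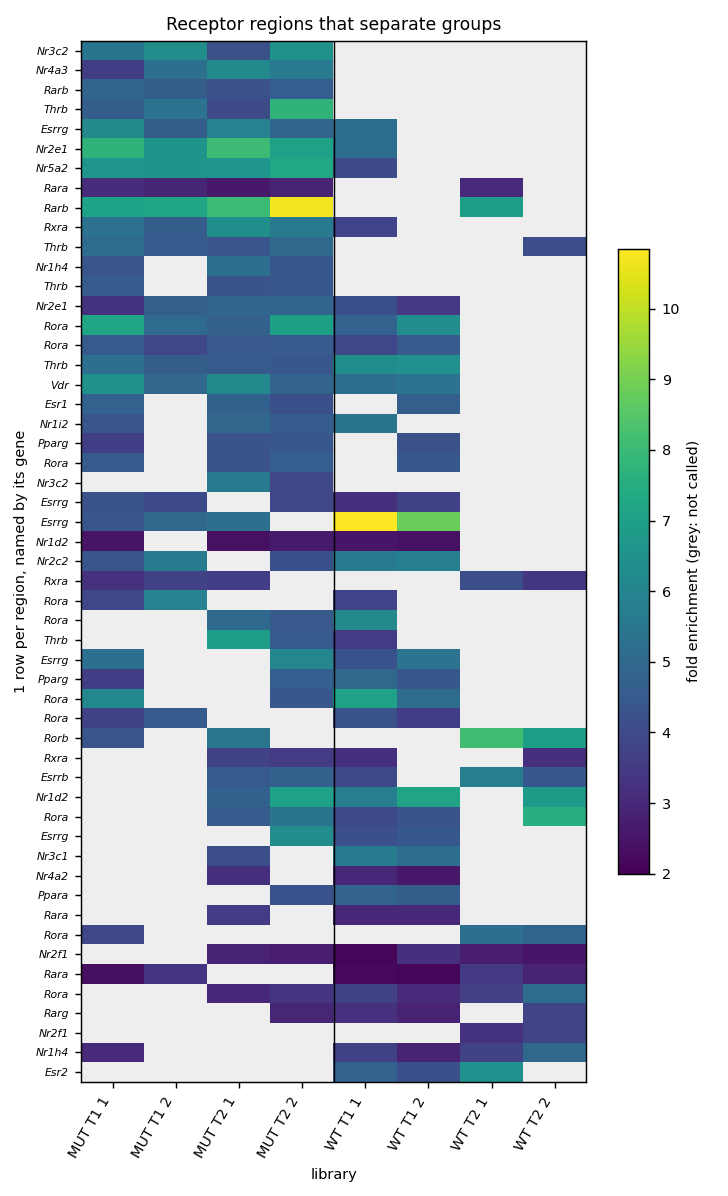
Fold enrichment in each library of the 53 distinct receptor regions gained or lost in any of the 6 comparisons, with grey cells where no peak was called. Among them are the regions that separate all MUT from all WT libraries (4) or all T1 from all T2 libraries (1). Those 4 MUT regions have values from 3.65 to 7.74 and that Rora region from 3.65 to 4.56.

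A single receptor region (0.246%) was called in all 4 T1 and none of the 4 T2 libraries, against 0.0507% of all regions, and 0 showed the reverse, against 0.0265% (0.0771% for both directions). It lay inside Rora at chr9:69111352-69111896, with 3.75 and 4.56 in MUT T1 and 4.27 and 3.65 in WT T1 libraries. All 4 values were below the median of their lists. With equal numbers of peaks the region was called in 2 T1 libraries and 0 T2 libraries, and a region of Thrb at chr14:17988408-17989389 met the rule in its place. The Rora region was kept under the other 3 settings named above.

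Few receptor regions were called, or missing, in 1 group alone. Called in both libraries of a group and in no other library were 0 receptor regions for MUT T1 (0.161% of all regions), 1 for MUT T2, at Nr3c2 (0.409%), 0 for WT T1 (0.503%) and 1 for WT T2, at Nr2f1 (0.0716%). Called in all 6 libraries outside a group and in neither of its own were 2 for MUT T1, at Nr2f1 and Rora (0.137% of all regions), 1 for MUT T2, at Rara (0.0353%), and 0 for WT T1 (0.152%). For WT T2 there were 5 (1.23%, against 0.649%), at Nr2e1, Vdr, Thrb and Rora, which has 2.

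In the 187 regions called everywhere, percentile ranks of fold enrichment were compared, each library being ranked over the 49577 regions that all 8 share. All 4 MUT ranks lay above all 4 WT ranks in 4 receptor regions (2.14%) and below them in 2 (1.07%), against 1.73% and 1.55% of all such regions (3.28% for both directions), so these counts are near the background. The widest separation was in a region of Rarb at chr14:16597778-16598727. Its fold enrichment was 10.04, 9.80, 9.01 and 9.27 in MUT libraries, against 5.47, 7.46, 7.67 and 5.18 in WT libraries, and its mean percentile was 75.9 in MUT and 31.8 in WT. Another Rarb region, at chr14:16559247-16560078, had 6.67, 5.72, 6.76 and 6.27 in MUT libraries, against 3.71, 3.83, 5.02 and 5.74 in WT libraries, with mean percentiles of 32.7 and 9.07. Both lie inside Rarb on either side of its promoter region, which did not separate the genotypes. The other higher regions were the Esr1 promoter (mean percentile 36.4 in MUT and 25.5 in WT) and a region in Rora at chr9:68988575-68989334 (16.4 and 8.21).

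**Figure D5:**
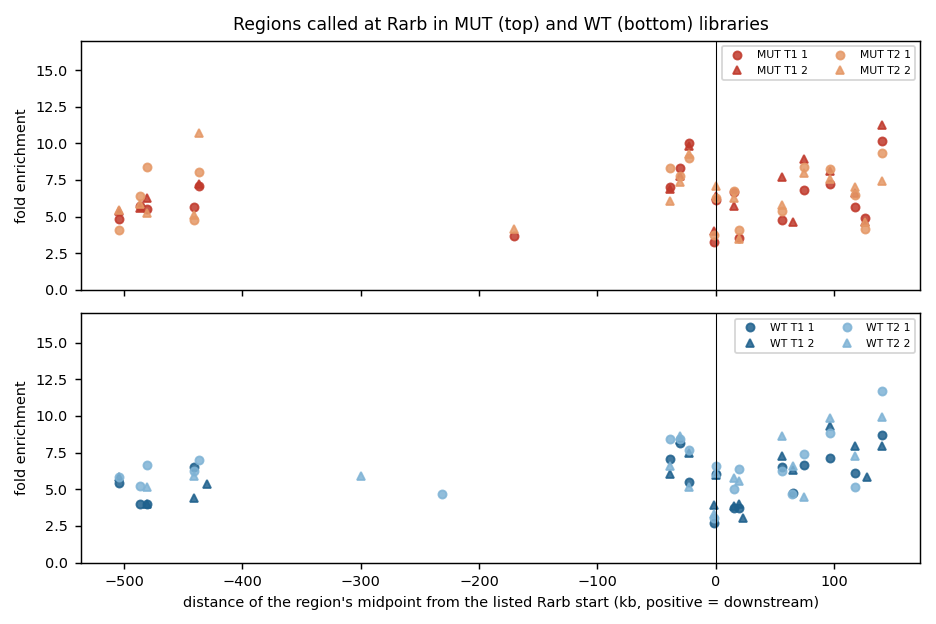
Fold enrichment of the regions at Rarb in the 8 libraries, placed by distance from the listed start. Of the 2 regions called everywhere that separate by rank, the MUT libraries all lie above the WT libraries on this scale at chr14:16597778-16598727. At chr14:16559247-16560078 the values just overlap, at 5.72 in MUT T1 replicate 2 and 5.74 in WT T2 replicate 2. The genotypes also overlap at the promoter region, where values run from 5.98 to 7.12.

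The Ppard promoter region, whose window is printed above, was one of the 2 lower regions, with a mean percentile of 31.2 in MUT (28.1 to 35.8) and 48.2 in WT libraries (41.0 to 55.7). The other lay near Thrb at chr14:17632806-17633558 (55.1 in MUT and 69.2 in WT). When ranks were taken from the −log10 p-value, which grows with depth, the groups still did not overlap at the 2 Rarb regions. They overlapped at the other 4, among them the Ppard promoter region. T1 ranks lay above T2 ranks in 2 receptor regions (1.07%) and below in 0, against 1.37% and 1.28% of all such regions (2.64% for both directions). These were in Nr6a1 at chr2:38863810-38864448 (mean percentile 98.5 in T1 and 94.4 in T2) and in Thra at chr11:98765324-98766255 (36.8 and 23.8), and both also separated by −log10 p-value.

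The number of regions called per gene was compared by exact permutation of the 8 libraries (two-sided, 70 arrangements), with Benjamini-Hochberg adjustment over 17091 genes. The smallest p this design allows is 0.0286, a level that can hardly pass such an adjustment, and 0 of the 17091 genes passed it in either comparison. Of 43 receptors tested, 0 had an unadjusted p under 0.05 for MUT against WT or for T1 against T2, where 0.609% and 0.187% of all genes did. Thrb came closest for genotype, with 13, 10, 15 and 13 regions in MUT libraries, against 11, 10, 8 and 9 in WT libraries (means 12.8 ± 2.06 and 9.50 ± 1.29, SD, n = 4 each; exact permutation p = 0.0857, adjusted p = 1.0). Nr2f1 came closest for population, with 5, 4, 6 and 6 regions in T1 libraries, against 7, 7, 6 and 7 in T2 libraries (means 5.25 ± 0.957 and 6.75 ± 0.5, SD, n = 4 each; exact permutation p = 0.0857, adjusted p = 1.0). The groups overlapped or touched in both cases.

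Genes that work with the receptors were counted in the same way. Of 13 coregulator genes with a listed start, 11 had it open in all 8 libraries, Ncoa6 and Ppargc1a having no call. The start was open in 9 of 13 genes of ligand supply (69.2%), such as those that make or degrade retinoic acid. It was open in 15 of 15 known target genes. Over all protein-coding genes with a listed start the share was 63.2%, and that of ligand supply was close to it. These 3 lists of 20 genes had 187, 83 and 167 regions, in that order. Only the coregulators had a region that separated the pooled groups, 1 of the 187 in each comparison. Of all regions, 0.282% separated MUT from WT and 0.0771% separated T1 from T2. The difference between the lists thus rests on 1 region per comparison. Ncoa2, a coactivator that binds liganded receptors, had one at chr1:13301370-13301819, with 4.11, 4.11, 3.57 and 4.12 in MUT libraries and no peak in WT libraries. Tbl1xr1, a subunit of the NCoR corepressor complex, had one at chr3:22115190-22115762, with 4.05 and 4.28 in MUT T1 and 5.18 and 3.67 in WT T1 libraries and no peak in T2 libraries.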

How the data were processed

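ATAC-seq was run on 5000 sorted nuclei per library with transposition for 30 min at 37 °C, per the labels' protocols. The authors deposited 1 peak list per library, called per sample and not pooled. Per the submitters' processing notes, mm10 was the build and Bowtie2, MACS2 and SAMtools were used, with no versions. A shift of cut sites for the transposase is not given in these sources. The deposited columns used are fold enrichment, which is the ratio of summit to local background in that library, and the −log10 of the p-value and of the q-value. The deposited score was not used, and the offset of the summit served 1 alternative. No deposited −log10 q-value was below 3.00, and a region without a peak may be open below that threshold.

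Overlapping peaks (1 bp or more) of the 8 lists were merged, on chromosomes 1 to 19 and X only. A library counted as calling a region if any of its peaks overlapped it. Gene spans came from a RefSeq gene table and start sites from RefSeq promoter windows of 300 bases, both of assembly GRCm38.p6. Relative depth was solved from the ratio and −log10 p-value that the authors deposited, and the solution returned the deposited p-value within 0.001 for 100% of the peaks solved. Intervals on depth are not given, since the lists hold no read totals. Percentile ranks were taken over the regions called in all 8 libraries. The scripts were tested on simulated data. Python 3.11.15, numpy 2.4.6, pandas 2.3.3, scipy 1.17.1 and matplotlib 3.10.9 were used.

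The receptors and the gene and motif lists were chosen with earlier results of these data known. Every receptor was accounted for by class. Values per library were given for the 8 promoters with the highest median fold enrichment, for 13 receptors of stem cell interest, for each region that separated the pooled groups, and for up to 5 gained and 5 lost regions per comparison by the smaller value, some by range. Alternatives were a stricter q-value, equal numbers of peaks, windows of 250 bp on each side of summits, peaks covering 50% of a region, assignment within 10 kb, ranks by −log10 p-value and leaving out each library. A promoter call from the peak itself, a replicate block for regions per gene and leaving out the 3 shallowest libraries together were added after seeing the data.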

Additional observations from a re-analysis of the deposited data

Results flagged for a closer look

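In 40 groups of 4 libraries, 1 sample stood apart from the other 3 in 3 cases, and chance gives about 1 in 20 groups. MUT T1 replicate 2 called 250 receptor regions, against 295 to 301 in the other MUT libraries and 293 to 299 in the other T1 libraries, and was low in both sets. Its recovered background was 2.03 fragments per position, the lowest of the MUT and of the T1 libraries, and its part in the count was not tested. Per 100 peaks it called 0.391 receptor regions, within the range of 0.384 to 0.414 over the 8 libraries. At the Rxra promoter region, MUT T2 replicate 2 had a fold enrichment of 5.55, against 4.69 to 4.82 in the other MUT libraries. WT libraries ran from 4.70 to 5.68 at that region.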

How the results depend on the processing

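No paired analysis was possible because the counts of called regions come without a test, except for regions per gene. With a replicate block there, added after seeing the data, permutation within the pairs of libraries that share a number had 16 arrangements and a smallest possible p of 0.125. It gave 0 genes with an adjusted p under 0.05, which this design could not give, so it says nothing on stability. The labels do not say that a number marks a shared animal or day, so the numbers were not taken to pair libraries. Replicate 1 minus replicate 2 correlated across genes between groups at −0.0459 to 0.261. The highest value was between MUT T1 and WT T2, and in both groups replicate 2 was the shallower library. These correlations therefore cannot decide whether the numbers pair libraries. Receptor genes with a region in every library, those with an open start and the regions called everywhere kept within 1.5 times their values under the alternatives run. Receptor genes with no region numbered 2 with a −log10 q-value of at least 5 and 2 with equal numbers of peaks. With equal numbers of peaks, 16 regions differed between MUT T2 and WT T2 and 7 between MUT T1 and MUT T2. When peaks had to cover 50% of a region, 36 differed between WT T1 and WT T2. By −log10 p-value, ranks separated T1 from T2 in 4 regions.

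Without the 3 shallowest libraries together, a setting chosen after seeing the data, 48 regions differed between MUT T1 and WT T1 (33 gained, 15 lost), 37 between MUT T1 and MUT T2 (24 gained, 13 lost), 11 between MUT and WT (9 gained, 2 lost) and 7 between T1 and T2 (4 gained, 3 lost). Groups of fewer libraries meet the rule more easily. The shares of all regions are not given here for this setting, so these counts do not show whether receptor regions differed from all regions. In the comparisons of MUT T1 with WT T1 and with MUT T2, only MUT T1 was smaller, which makes a gain easier to meet than a loss.

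Leaving out each library in turn, receptor genes with no region numbered 1 to 2. Differing regions numbered 19 to 54 for MUT T1 against WT T1, 27 to 63 for MUT T2 against WT T2, 12 to 46 for MUT T1 against MUT T2 and 22 to 55 for WT T1 against WT T2. In these 4 comparisons the count was over 1.5 times larger without any 1 of the 4 libraries compared. They numbered 4 to 8 for MUT against WT, the highest without WT T1 replicate 1, and 1 to 3 for T1 against T2, the highest without MUT T2 replicate 2. Ranks separated MUT from WT in 9 to 16 regions and T1 from T2 in 4 to 16. For these counts too the shares of all regions are not given here, so they describe the receptor regions only. The adjusted permutation test on regions per gene gave 0 under these settings, but the smallest p of the design leaves it almost no chance to call a gene, so this says nothing on stability. The shallow libraries limit what a missing peak can show.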
